A study of Homo sapiens with 7 samples.

Results

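Start peaks, the m6A peaks that the deposited table annotates as lying at the transcript start, numbered 1552 of the 12769 peaks listed. N6-methyladenosine (m6A) is a methyl mark on adenosines inside messenger RNA. The 1552 members were chosen by their segment entry alone, which marks positions under 200 nt from the 5' end of a coding transcript. They lay in 1551 transcripts of 1550 gene symbols and made up 12.5% of the 12424 peaks that carried a segment. The libraries came from untreated HepG2 cells, a human liver carcinoma line. Poly(A)-selected RNA was fragmented to about 100 nt, and 4 libraries were made from RNA pulled down with an antibody against m6A and 3 from input RNA. All 7 were summarised by the authors in 1 table, with no column for a single library. Depth, replicate error and a test of immunoprecipitate over input could therefore not be had. Shares below carry 95% Wilson intervals, which cover counting error over genes or peaks of this table only, and neither genes nor peaks are replicates.

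The 5' end of a messenger RNA carries a cap, a methylated guanosine that protects the transcript and recruits the translation machinery. Internal m6A is written by the METTL3 and METTL14 methyltransferase on adenosines within the RRACH consensus (R stands for a purine and H for any base but G). Where the first transcribed base is an adenosine, it can be methylated at the same nitrogen to N6,2'-O-dimethyladenosine (m6Am) by PCIF1, and antibodies against m6A also bind m6Am. Messenger RNAs of ribosomal proteins begin instead with a cytidine followed by a run of pyrimidines, the terminal oligopyrimidine (TOP) motif. The table does not separate m6A from m6Am.

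The label of the cells was checked against 10 hepatocyte markers. Expression in the table is a quantile, a rank of the transcript's mean expression that reaches 1 for the highest and is 0.314 for the lowest. Which libraries entered that mean is not given, so the quantile may not be independent of the peaks. All 10 markers lay between 0.314 and 0.619, and 5 (ALB, AFP, TTR, APOB and SERPINA1) were at the lowest value. None of the 10 was above the median of the expressed transcripts, which goes against the label of a hepatocyte-derived line. None had a peak either, but few peaks are listed at low quantiles, for example 90 over 1802 coding transcripts between 0.4 and 0.5. The missing peaks therefore add nothing on the label. A quantile of bulk RNA cannot tell fewer expressing cells from less RNA per cell. A start peak was listed in 10.2% of the 15273 expressed coding transcripts, where expressed means above the lowest quantile. Counted by gene symbol the share was 10.3%, and any peak was listed for 46.3% of genes.

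The bases around the RefSeq start of transcription are printed for the highest-scoring start peaks among the named genes with a single listed RefSeq start, because the base next to the cap differed between genes with and without a start peak. Each line gives 30 bases of the coding strand, in DNA letters, with the first transcribed base in capitals. Coordinates are those of GRCh38.p14 in the RefSeq table. Of 12 such genes, 9 began with A, 2 with G and 1 with C. Over all matched genes, as set out below, A opened 56.9% of those with a start peak and 40.6% of those without.
IL20RB: tcctgggccggctctAgaacaattcaggct (chr3:136957968-136957997, plus strand)
NOP56: gagcgcgctagccgcAttgcgagccgaacc (chr20:2652617-2652646, plus strand)
CRIP1: ctgctgcgggtgagcCttttgcctcggaac (chr14:105486871-105486900, plus strand)
TFRC: ggccgccatcccctcAgagcgtcgggatat (chr3:196082076-196082105, minus strand)
ENO1: gcgggcggcgcggacAgtatctgtgggtac (chr1:8878672-8878701, minus strand)
NDUFS8: tacagtgtagcctccGcctcccgattgact (chr11:68030666-68030695, plus strand)
RPS4X: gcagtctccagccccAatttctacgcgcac (chrX:72277234-72277263, minus strand)
RARS: tttccgcttccgtccActtggcgagtgaga (chr5:168486456-168486485, plus strand)

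The most expressed genes with a start peak and a single RefSeq start were MIF, ENO1, PFN1, S100A4 and NCL, and all 5 began with A. For contrast, lines are given for the 5 most expressed genes without a start peak by the same rule, a set added after values were seen. Of these, 3 began with C, 1 with G and 1 with A. This set holds the ribosomal protein genes RPLP1 and RPL36 and the noncoding RNA H19. Over all matched genes above a quantile of 0.9, A opened 53.6% of those with a start peak and 36.0% of those without. The few lines printed therefore look more sharply split than genes as a whole. PCIF1, the m6Am methyltransferase and the only transcript with 2 start peaks, began with G.
MIF: aaaaggcgggaccacAgtggtgtccgagaa (chr22:23894368-23894397, plus strand)
PFN1: tgcgagggctgctgcAcagcgagcggagcc (chr17:4948516-4948545, minus strand)
S100A4: ctctgggccgtccccAttcttcccctctct (chr1:153545792-153545821, minus strand)
NCL: tcagtctttcgcctcAgtctcgagctctcg (chr2:231464470-231464499, minus strand)
PCIF1: cagcgcatgcgcagcGcggagtcccggccc (chr20:45934668-45934697, plus strand)
H19, no start peak: tgccaagcagagcgcAcagtgttcctggag (chr11:2001252-2001281, minus strand)
EEF2, no start peak: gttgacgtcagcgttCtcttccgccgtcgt (chr19:3985449-3985478, minus strand)
RPLP1, no start peak: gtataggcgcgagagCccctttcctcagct (chr15:69452803-69452832, plus strand)
RPL36, no start peak: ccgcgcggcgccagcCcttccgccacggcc (chr19:5690280-5690309, plus strand)
GAPDH, no start peak: agcgggtgcatccctGtccggatgctgcgc (chr12:6535249-6535278, plus strand)

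Over all genes that could be matched, A was the first base of 56.9% of genes with a start peak (n = 1285) and of 40.6% of genes without one (n = 7970). The second share was weighted to the expression bins of the first, each bin being 0.1 of the quantile, and both cover coding genes with a quantile above 0.5. In comparisons over all matched genes, here and below, every coding transcript of the table counts as a gene. A symbol with several transcripts therefore counts more than once. G opened 33.3% of genes with a start peak and 43.7% of those without. C opened 8.54% with a start peak and 14.7% without. A CA pair across the start, a common initiator dinucleotide, stood at 43.1% of starts with a start peak and 29.8% of starts without. A C followed by 4 pyrimidines, as in TOP transcripts, opened 3.15% of genes with a start peak and 7.66% of those without. A RefSeq start was found for 82.9% of genes with a start peak and 77.6% of genes without, the second of which is short of 80%. Promoters on chromosome 8 were not used here, and off that chromosome the shares were 85.0% with a start peak and 80.3% without.

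Promoter motifs were searched in the same way, on either strand. GGGCGG, the core of the GC box, lay in the 300 bases around 73.4% of starts with a start peak and 73.0% of starts without. CCAAT lay at 37.9% with a start peak and 37.1% without, CCGGAAG (an ETS site) at 20.1% and 21.8%, and TATAAA at 6.03% and 5.52%, in the same order. Among all 35116 listed promoters the 4 motifs stood at 45.0%, 34.6%, 10.3% and 11.5%. CACGTG (an E-box) lay at 10.1% with a start peak and 11.1% without. The long YY1 motif lay at 2.93% and 2.57%, and the palindromic CGCG element at 1.28% and 0.892%, in the same order, against 7.26%, 0.849% and 0.424% of all listed promoters for these 3. The mean GC content of the 300 bases was 65.2% with a start peak and 65.8% without. A match describes letters in this window and says nothing of binding.

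Read the other way, a start peak was listed for 18.6% of genes that began with A (565 of 3037, interval 17.3 to 20.03%), 11.8% of those with G (322 of 2735) and 9.14% of those with C (71 of 777). These counts use genes with a single listed RefSeq start, 62.1% of genes with a start peak and 54.6% of those without. They describe those genes only, since coverage under 80% makes the check void for start peaks as a whole. T opened 26 genes, and 4 of them had a start peak. The order A, G, C held above a quantile of 0.9, where start peaks were listed for 39.1% of A genes, 23.5% of G genes and 15.8% of C genes. There, 27.8% of all expressed coding genes, counted by symbol, had one. Without cytosolic ribosomal protein genes the share of C genes above 0.9 was 17.8%. In the top bin, above 0.98, 56 of 108 A genes had a start peak (51.9%), with 28.0% of G genes and 16.3% of C genes. The share was higher for A than for G or C in all 7 bins, and the intervals of A and G lay apart in 4 of the 7.

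**Figure D1:**
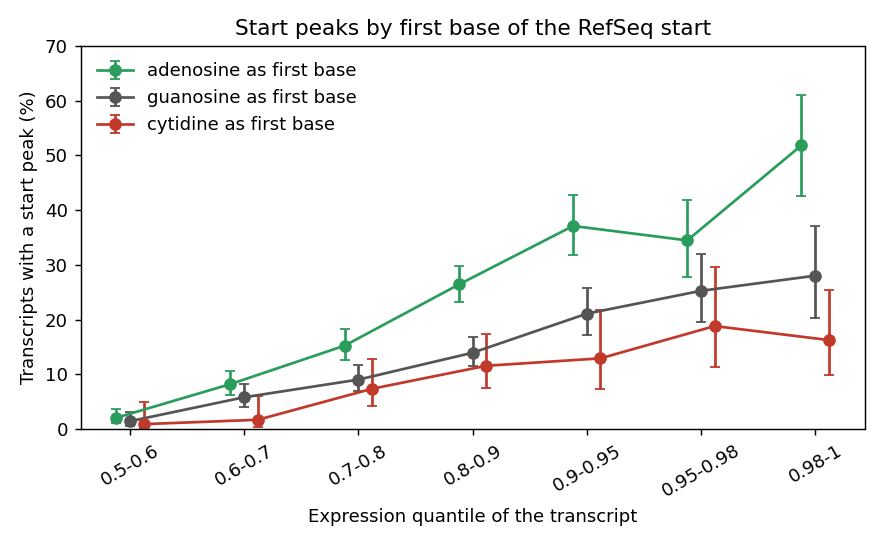
The share of coding transcripts with a start peak (y axis, percent, with 95% Wilson intervals) is plotted against the expression quantile (x axis, 7 bins) for those whose RefSeq start opens with adenosine, guanosine or cytidine. Adenosine lies highest in every bin and reaches 51.9% in the top bin, where cytidine is at 16.3%.

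Start peaks of A genes also scored slightly higher. Their median score, in the authors' unit of unstated scale, was 2.77 (565 peaks, interval of the median 2.71 to 2.86), against 2.61 for G genes (322, 2.53 to 2.70) and 2.59 for C genes (71, 2.37 to 2.73). Listed positions hardly differed by first base, with medians of 97 nt for A, 95 nt for G and 99 nt for C.

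The table's start and the RefSeq start were not always the same base, which limits all counts by first base. In 1573 genes with a single RefSeq start and an exactly matched GENCODE 29 transcript, both annotations put the start on the same base in 324 (20.6%) and within 10 nt in 35.8%. With first bases read from GENCODE instead, A opened 35.8% of transcripts with a start peak (n = 123) and 25.7% of those without (n = 1068, same bins). Both shares were lower than with RefSeq, and the difference narrowed to 10.1 percentage points from 16.3.

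By position, start peaks gathered in a narrow band. The median was 97 nt from the listed start (interval of the median 95 to 98 nt, quartiles 83 and 123 nt), and the extremes were 51 and 199 nt. The bin from 90 to 99 nt was the fullest, with 334 peaks. Positions from 80 to 99 nt held 580 peaks (37.4%), and positions from 60 to 109 nt held 1018 (65.6%). No peak of any segment was listed under 51 nt, and the fragments were about 100 nt long. At the edge of the segment, the 16 start peaks at 195 to 199 nt had a median score of 2.49 (interval of the median 2.11 to 2.94). The 27 peaks of other segments at 200 to 204 nt had 2.86 (2.39 to 3.40), and these intervals overlapped.

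**Figure D2:**
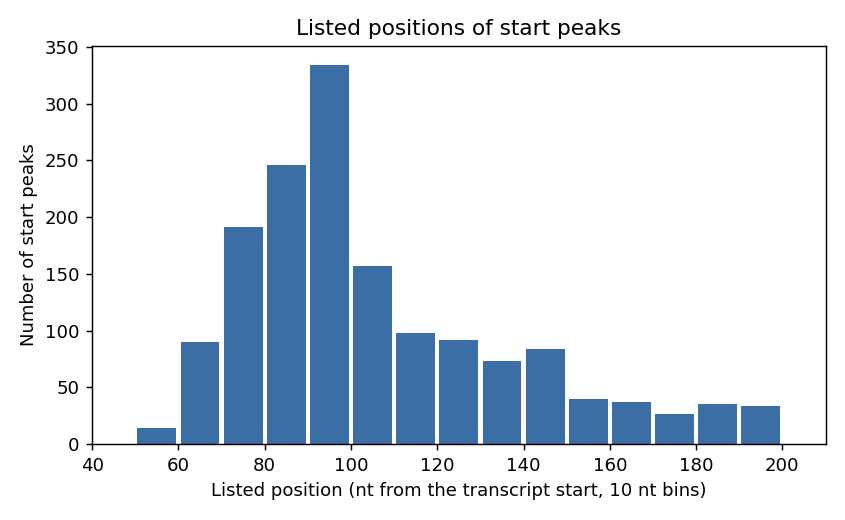
The number of start peaks (y axis) is plotted by listed position in nt from the transcript start (x axis, 10 nt bins). The bars peak at 90 to 99 nt with 334 peaks, and a tail runs to 199 nt.

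The tail shortened when positions were counted from the RefSeq start. The comparison was possible for 273 start peaks of exon 1 with a matched exon and a single RefSeq start within 200 nt of the listed one. That is under 80% of the 1351 in exon 1, so it describes those 273 only. The RefSeq start lay downstream of the table's start in 191 of them and on the same base in 31. The median position was 94 nt from the table's start and 75 nt from the RefSeq start (quartiles 65 and 86 nt). Peaks listed at 51 to 100 nt (n = 178) had medians of 85 nt and 75 nt on these scales. Peaks listed at 101 to 199 nt (n = 95) had 130 nt and 77 nt, so that the groups, far apart by construction on the table's scale, came within 2 nt on the other. Among the later-listed 95, 18 lay at 60 to 109 nt on the table's scale and 69 (72.6%) on the RefSeq scale. With no limit on distance, 70.2% of 299 start peaks lay 60 to 109 nt from the RefSeq start (64.8 to 75.1%), against 31.5% of 54 exon 1 peaks placed by the authors in the later 5' UTR (20.7 to 44.7%). These groups are divided by listed position, so that a difference in distance from a nearby start is largely set by the segment rule and is given as a description.

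**Figure D3:**
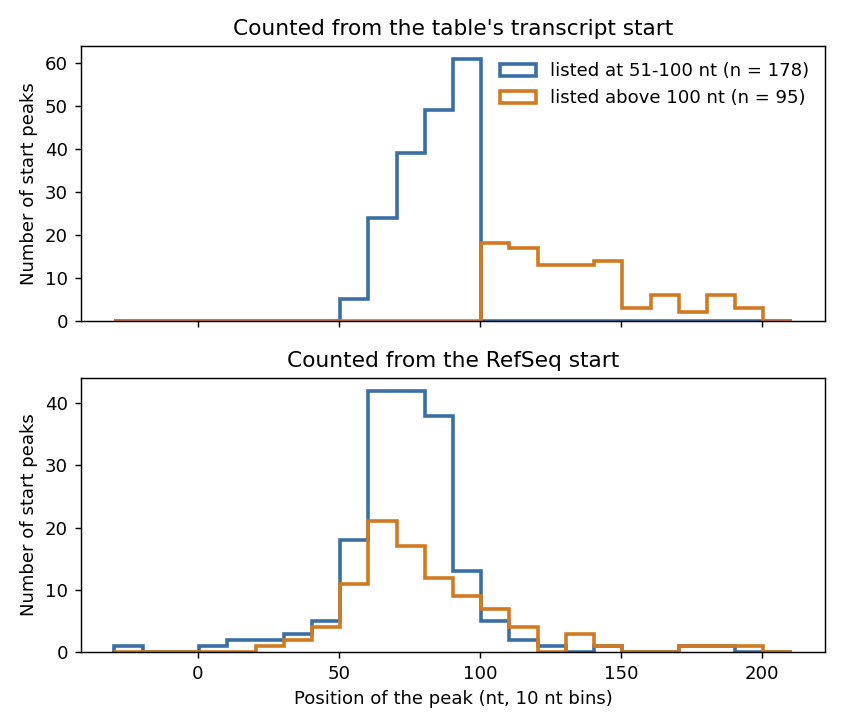
Numbers of start peaks (y axes) are plotted by position in nt (x axis, 10 nt bins), counted from the table's start (upper panel) and from the RefSeq start (lower panel), for 178 peaks listed at 51 to 100 nt and 95 listed at 101 to 199 nt. The lines separate in the upper panel and overlap in the lower, with medians of 75 and 77 nt.

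Start peaks sat in short exons. Exon 1 held 1351 of them (87.0%), exon 2 held 198 (12.8%) and exon 3 held 3, in BSDC1, TIMM17B and TNNC1, named after their values were seen. The exon around a start peak had a median length of 208 nt, against 1335 nt around a coding sequence peak. An exon under 200 nt held 47.0% of start peaks and 1.67% of coding sequence peaks. A position under 200 nt favours short exons by construction. Start peaks of exon 1 lay a median of 112 nt before the exon's end, and 156 of 1351 (11.5%) lay within 25 nt of it.

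Taken over all expression levels, start peaks scored below peaks of each other segment. Their median was 2.73 (2.69 to 2.77), against 2.99 in the 5' UTR further on, 3.14 in the coding sequence, 3.22 in the 3' UTR and 3.45 at the stop codon. A score of 3 or more was reached by 532 start peaks (34.3%), which lay in 3.55% of the expressed coding genes. A score of 4 or more was reached by 6.44% of start peaks, 24.3% of coding sequence peaks and 32.8% of stop codon peaks. A score of 5 or more was reached by 15 start peaks (0.966%), against 6.91% of coding sequence peaks and 11.0% of stop codon peaks. The gap was narrower at high expression. Between quantiles of 0.5 and 0.6 the median was 2.53 for 30 start peaks and 3.52 for coding sequence peaks, and above 0.98 it was 2.88 for 156 start peaks and 2.89 for coding sequence peaks. Beside the later 5' UTR the order varied. Between 0.9 and 0.95 medians were 2.73 for start peaks and 2.66 for the later 5' UTR, with overlapping intervals. Between 0.95 and 0.98 they were 2.68 and 3.04, and start peaks were also the lower in the other bins compared. Start peaks at 76 to 100 nt had a median of 2.61 (718 peaks), and those at 101 to 125 nt had 2.91 (257 peaks), with intervals of the medians that did not overlap (2.57 to 2.67 and 2.84 to 2.99).

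Within transcripts that had further peaks, the start peak was the highest in 181 of 702 (25.8%, 22.7 to 29.1%). Its score was lower than that of the highest other peak by a median of 0.86 in the authors' unit (a start minus other difference of -0.86). Transcripts with 3 peaks (166) or with 4 or more (91) mostly set the start peak against the best of several others. Such a comparison lowers both values even where scores are alike. The start peak exceeded the best coding sequence peak in 61 of 210 transcripts, the best stop codon peak in 126 of 445 and the best 3' UTR peak in 62 of 216. Beside peaks of the later 5' UTR it was the higher in 12 of 24 (interval 31.4 to 68.6%). Start peaks with no companion scored a median of 2.76 (849 peaks), and those with another peak scored 2.69 (703 peaks).

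The highest start peak scored 6.08, in IL20RB, a subunit of interleukin receptors (chromosome 3, 138159397 to 138212610, plus strand, in the table's build, which is not given in the sources used here). It lay at 193 nt in exon 1, and the gene's best other peak, in the 3' UTR, scored 4.06. MAGT1, a subunit of the oligosaccharyltransferase that adds N-glycans, followed at 6.04 (chromosome X, 76968518 to 77037583, minus strand), at 75 nt of a 122 nt exon 1. NEIL1, a DNA glycosylase of base excision repair (chromosome 15, 73426463 to 73434641, plus strand), scored 5.78 at 182 nt. ALG3, a mannosyltransferase of N-glycan assembly (chromosome 3, 185442811 to 185449440, minus strand), scored 5.76 at 87 nt. MAGT1, NEIL1 and ALG3 had no other peak.

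The next 6 lay between 5.21 and 5.30. NOP56, a core protein of box C/D small nucleolar ribonucleoproteins, scored 5.30 at 111 nt in exon 2, and CRIP1, a LIM domain protein, scored 5.30 at 144 nt in exon 2. TFRC, the transferrin receptor that takes up iron, scored 5.26 at 152 nt in exon 2, above its stop codon peak of 4.57. ARF4, a GTPase of Golgi traffic, scored 5.23, and MRPL49, a protein of the mitochondrial ribosome, scored 5.21. BSG (basigin), a chaperone of lactate transporters, scored 5.21 at 109 nt, above its 3' UTR peak of 3.13. Quantiles of these 10 genes ran from 0.630 (NEIL1) to 0.996 (BSG), so that high scores were not confined to the most expressed transcripts.

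Start peaks became more frequent with expression. They were listed for 1 of 1802 coding transcripts between quantiles of 0.4 and 0.5 (PECAM1, an endothelial adhesion molecule, score 3.14 at 198 nt) and for 1.47% between 0.5 and 0.6. The share was 10.2% between 0.7 and 0.8, 25.2% between 0.9 and 0.95, and 31.5% above 0.98 (156 of 496, 27.5 to 35.7%). Stop codon peaks took another course over the same transcripts. They were listed for 10.9% between 0.5 and 0.6, for 36.4% between 0.8 and 0.9, their highest, and for 23.6% above 0.98. Median quantiles were 0.887 for the 1551 transcripts with a start peak, 0.778 for 5439 coding transcripts with other peaks alone and 0.549 for 8283 without a peak. Few reads in weakly expressed transcripts can keep a peak from being called, and their part in this course was not tested.

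**Figure D4:**
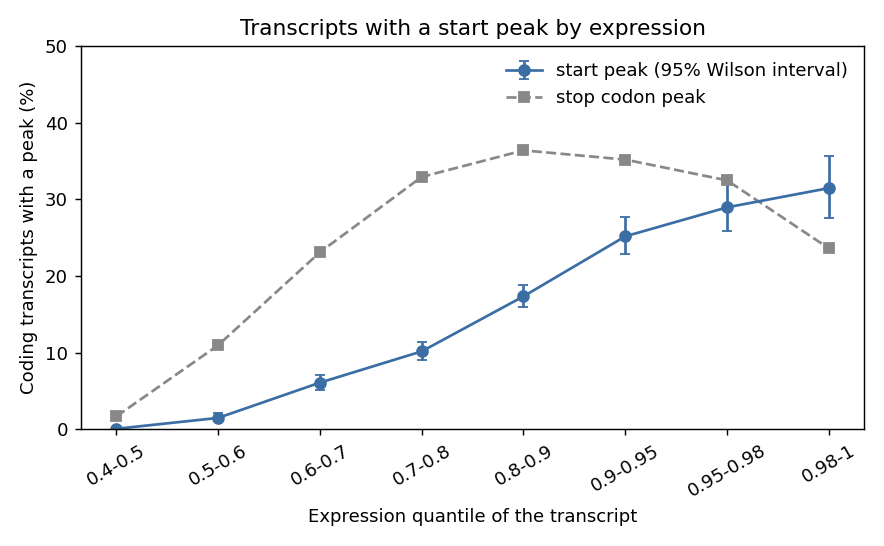
The share of coding transcripts with a start peak (circles, with 95% Wilson intervals) and with a stop codon peak (squares) is plotted in percent (y axis) against the expression quantile (x axis, 8 bins). The start peak share climbs to 31.5% in the top bin, whereas the stop codon share is highest at 36.4% between 0.8 and 0.9.

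Among the most expressed genes with a start peak, ACTB (beta-actin) scored 3.21 at 86 nt in exon 2, beside a stop codon peak of 3.68. MIF, macrophage migration inhibitory factor, scored 2.89 at 86 nt, and ENO1, a glycolytic enolase, scored 4.67 at 105 nt. PFN1, the actin-binding profilin, scored 2.90 at 79 nt, and S100A4, a calcium-binding protein, scored 2.57 at 80 nt. These 5 lay above a quantile of 0.998. Others as highly expressed had peaks but none at the start, among them the translation elongation factor EEF2 (stop codon, 3.77), gamma-actin ACTG1 (stop codon, 3.94) and BASP1, a membrane-bound signalling protein (coding sequence, 2.73). PKM2, pyruvate kinase, had a peak of 3.03 listed at 200 nt, just outside the segment. H19, a noncoding RNA that the table lists as coding, had a peak of 2.56.

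More than 1 in 2 start peaks stood alone. The start peak was the only peak in 849 of 1551 transcripts (54.7%, 52.3 to 57.2%), 445 transcripts had 2 peaks, 166 had 3 and 91 had 4 or more. Another peak was listed for 45.3% of transcripts with a start peak (42.8 to 47.8%). Of transcripts of the same expression bins without a start peak, 59.1% had a peak. For coding sequence peaks the shares were 13.5% with a start peak and 24.0% without, and for 3' UTR peaks 13.9% and 20.8%. For stop codon peaks they were 28.7% and 33.1%, and for the later 5' UTR 1.55% and 3.99%. Between 0.5 and 0.6 the order was the other way, with 36.7% of 30 transcripts with a start peak and 27.3% without. In the other 6 bins the share was lower with a start peak. Transcripts with a start peak spanned more of the genome in every bin, for example a median of 11083 bases with and 6728.5 bases without above 0.98. In the 123 exact matches to GENCODE, median transcript length was 2610 nt with a start peak and 2764.5 nt without (n = 1068). The part of length in these shares was not tested.

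The 20 gene lists were read against the number of start peaks that genes of the same expression bins would give, with no adjustment of the intervals for the number of lists. The lists were chosen with earlier results of these data known, so that the intervals describe them and are no independent support. In 5 lists the interval lay above the share from the bins (chaperonin and prefoldin, complex I, snRNP and LSM, proteasome and V-ATPase genes), and in 2 it lay below (cytosolic ribosomal protein and ZNF genes). For respiratory chain complex I, which oxidises NADH, 16 of 39 genes had one (41.0%, 27.1 to 56.6%), against 9.34 from the bins, and in all 16 it was the only peak. NDUFS8 scored 4.54 at 147 nt, NDUFS5 4.28 at 75 nt and NDUFS1 3.91 at 74 nt. NDUFB7, the most expressed complex I gene without one, had a stop codon peak of 2.57. Complexes II to IV had 8 of 25 (5.87 from the bins), led by SDHC of succinate dehydrogenase at 3.27. ATP synthase had 5 of 15 (3.80 from the bins), led by ATP5B, its catalytic beta subunit, at 4.86. All 13 of these start peaks were the only peak too, and the intervals of both lists included the share from the bins (23.5% and 25.3%).

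The highest share of the 20 lists was that of chaperonin and prefoldin. Of these 14 chaperonin and prefoldin genes, which fold actin and tubulin, 8 had a start peak (57.1%, 32.6 to 78.6%), against 3.13 from the bins. CCT2 scored 4.67 at 92 nt and CCT8 3.05 at 92 nt. Of 37 proteasome genes, 14 had one (37.8%, 24.1 to 53.9%), against 8.11, and in 12 it was the only peak. PSMD3, a regulatory particle subunit, scored 4.09 at 94 nt, and the ATPase subunit PSMC4 scored 3.86 at 94 nt. PSMC5, a sister ATPase with a quantile of 0.984, had no peak. Of 22 genes of the proton-pumping V-ATPase, 7 had one (31.8%, 16.4 to 52.7%), against 2.88, led by ATP6V1E1 at 4.12. With scores of at least 3 only, the counts were 3 for proteasome genes (2.88 from the bins), 5 for complex I (3.33), 2 for chaperonin and prefoldin (1.11), 3 for V-ATPase (0.995) and 3 for snRNP and LSM genes (1.51). Above a quantile of 0.9, proteasome genes had 8 of 21 (5.83), complex I 12 of 27 (7.50) and chaperonin and prefoldin 7 of 10 (2.78).

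Among RNA-processing and translation genes, 9 of 23 snRNP and LSM genes of the spliceosome had a start peak (39.1%, 22.2 to 59.2%), against 4.31 from the bins, and each was the only peak. SNRPB scored 3.80 at 148 nt. Above a quantile of 0.9 the count was 2 of 10, with 2.78 from the bins, and the other 7 start peaks lay in less expressed members. Mitochondrial ribosomal proteins had 17 of 75 (15.3 from the bins), with MRPL49 the highest, aminoacyl-tRNA synthetases 9 of 37 (7.35), led by RARS at 4.22, and translation initiation factors 10 of 57 (10.5), led by EIF4G2 at 4.23. RNA polymerase subunits had 4 of 29 (5.17), and the mitochondrial import machinery had 3 of 19 (4.06). Intervals of these 5 lists included the share from the bins.

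Cytosolic ribosomal proteins went the other way. Of 79 such genes, 4 had a start peak (5.06%, 1.99 to 12.3%), against 19.5 from the bins, and 8 had any peak. The 4 were RPS4X at 4.26, RPS27L, a homologue of RPS27, at 3.38, RPS15 at 2.19 and RPS14 at 2.04. RPL8, at a quantile of 0.9997, had no peak. Of 52 ribosomal protein genes with a single RefSeq start, 42 began with C and 39 of these with C and 4 pyrimidines. A start peak was listed for 2 of the 42. Of 7 that began with A (RPL4, RPL27, RPL17, RPS28, RPL9, RPL10A and RPS4X), 1 had a start peak, RPS4X. So few genes allow no finer statement.

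Zinc finger ZNF genes, mostly transcriptional repressors, had 4 of 430 (0.930%, 0.362 to 2.37%), against 23.1 from the bins, although 217 had a peak elsewhere or at the start. ZNF217 scored 3.42 and ZNF367 2.85. Of 91 ZNF genes that began with A, 2 had a start peak (2.20%, 0.605 to 7.66%). The median quantile of the ZNF list was 0.567. Over all genes that began with A, the share was 2.09% between quantiles of 0.5 and 0.6 (11 of 527) and 8.24% between 0.6 and 0.7. Histone genes of the HIST clusters, whose main transcripts lack a poly(A) tail, had 5 of 55 (9.73 from the bins), all as the only peak, with HIST1H1C the highest at 2.83. Immediate early genes, induced by growth factors and stress, had 5 of 43 (8.20), although 34 had some peak. In all 5 another peak accompanied it, as in FOSB, with 4.09 at 60 nt and another peak of 5.36 in the later 5' UTR. The intervals of the histone and immediate early lists included the shares from the bins (17.7% and 19.1%).

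Chromatin methyltransferases, demethylases and remodellers had 9 of 71 (11.2 from the bins), led by the acetyltransferase EP300 at 3.97. Replication factors had 9 of 36 (6.30), led by PCNA, the sliding clamp, at 4.66. Cyclins, CDKs and their inhibitors had 7 of 40 (5.73), led by CCNA2 at 4.16. Genes of m6A itself had 4 of 21 (3.21), namely the reader HNRNPA2B1 at 4.02, the reader IGF2BP1 at 3.04, the writer METTL3 at 2.40 and PCIF1. All 4 intervals included the share from the bins. In PCIF1 the start peaks lay at 88 and 108 nt of exon 1 and scored 2.04 each, beside a stop codon peak of 4.15.

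**Figure D5:**
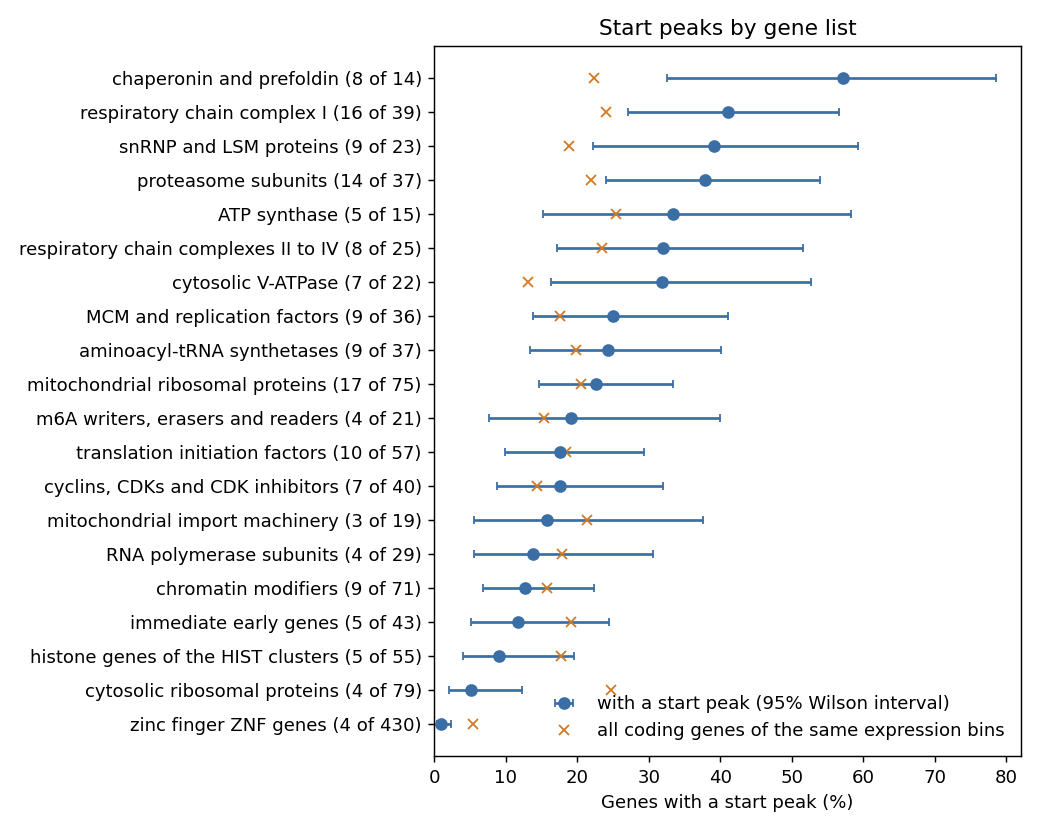
The share of genes with a start peak (circles, with 95% Wilson intervals) is plotted in percent (x axis) for each of the 20 gene lists (y axis, with counts), beside the share among all coding genes of the same expression bins (crosses). The interval lies above the cross for complex I, chaperonin and prefoldin, snRNP and LSM, proteasome and V-ATPase genes, and below it for ribosomal protein and ZNF genes. The lists were chosen with earlier results of these data known.

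First bases of the lists are set beside those of all coding transcripts with a single RefSeq start, of which 3037 began with A, 2735 with G and 777 with C. Intervals of the share with A overlapped among the lists below. They were, for example, 19.9 to 52.7% for complex I, 35.5 to 71.2% for proteasome and 4.01 to 39.9% for snRNP and LSM genes. Over all transcripts with a single RefSeq start, 18.6% of those with A had a start peak, and above a quantile of 0.9 the share was 39.1%. Median quantiles were 0.943 for complex I, 0.923 for proteasome, 0.956 for chaperonin and prefoldin and 0.758 for V-ATPase genes. For the first 3 of these lists the share above 0.9 is therefore the nearer one. Start peaks among the G and C genes of the lists below are not given, and a part of the first base was not tested. Of 29 complex I genes with a single RefSeq start, 18 began with G and 10 with A, and 7 of the 10 had a start peak. Proteasome genes began with A in 14 of 26, of which 7 had a start peak. V-ATPase genes began with A in 5 of 10, of which 4 had one. Mitochondrial ribosomal protein genes began with A in 21 of 56, of which 6 had one. Chaperonin and prefoldin genes began with A in 5 of 8, of which 3 had one. By contrast, snRNP and LSM genes began with C in 7 of 14, with G in 5 and with A in 2, and both of the A genes had one.

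Sequence around the start peaks could be read only in part, since the table's transcripts are not given with their sequence. An exact match of span and exons to GENCODE 29 was found for 123 transcripts with a start peak (7.93%), and a match of the peak's exon by number and length left 1 sequence for 518 start peaks (33.4%). Both fall short of 80%, so they describe the matched peaks and not start peaks as a whole. RRACH occurred within 50 nt of 66.6% of the 518 (62.4 to 70.5%), against 90.9% of matched stop codon peaks and 90.6% of matched coding sequence peaks. No share was read at stop codon or coding positions without a peak, so the part of base composition in this gap was not tested. GGACT, the strongest form of the consensus, lay near 15.3% of the 518, against 24.6% at the stop codon and 26.1% in the coding sequence. In the 123 exact matches, RRACH stood near 65.0% of start peaks (56.3 to 72.9%) and at 63.3% of the same positions in 1068 transcripts without a start peak. GGACT stood at 12.2% and 10.2% in the same order. With spans matched within 10 nt, RRACH stood near 68.0% of 231 start peaks and at 62.9% of the same positions in 2488 transcripts without one. Comparison transcripts without any peak had no peak exon to check, so their match to GENCODE is looser.

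The share with RRACH did not climb with the score. It was 65.8% for scores from 2 to under 2.5, 69.5% to under 3, 63.9% to under 4 and 69.7% above. Among matched start peaks at 101 to 199 nt it was 71.2% (64.5 to 77.1%, n = 198), and at 51 to 100 nt it was 63.7% (58.3 to 68.8%, n = 320).

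Of the 12 highest-scoring start peaks with a readable sequence, 9 had an RRACH within 50 nt, and 1 of these was GGACT. IL20RB and NUP88 had 4 sites in that window and HES1 had 2, so the nearest is the closest of several. In CRIP1, not shown, the peak lay at 144 nt and the nearest site at 105 nt. Which adenosine was methylated was not tested. Windows of 25 bases around the nearest site are shown for 5 of the 9 peaks with a site, with the pentamer in capitals, to let the site be set beside the listed position (GRCh38, coding strand).
IL20RB, peak at 193 nt and site at 194 nt: tggctgagatGGACAgaatgcttta (chr3:136958046-136958070, plus strand, 5' UTR)
HES1, peak at 76 nt and site at 71 nt: cttggtcctgGAACAgcgctactga (chr3:194136203-194136227, plus strand, 5' UTR)
NUP88, peak at 82 nt and site at 72 nt: gagctgtggcAGACCtggcttccta (chr17:5419593-5419617, minus strand, 5' UTR)
ATP5B, peak at 180 nt and site at 162 nt: ggccttgcggAGACTcaccccttca (chr12:56645895-56645919, minus strand, coding sequence)
CYP39A1, peak at 139 nt and site at 161 nt: agggacggcaGGACTgtttcacact (chr6:46652614-46652638, minus strand, 5' UTR)

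No RRACH lay within 50 nt of the start peaks of TFRC, ACSF2 and PRPS1, scored 5.26, 5.07 and 4.86. The TFRC start, printed above, opened with A, as did 56.9% of matched starts with a start peak, and its peak lay at 152 nt in exon 2. First bases of ACSF2 and PRPS1 are not given here, and a link between first base and a missing RRACH was not tested.

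Relative to the start codon, 74 of the 123 exactly matched start peaks lay in the 5' UTR (60.2%, 51.3 to 68.4%) and 49 in the coding sequence (39.8%). The start codon was within 50 nt of 67 of them (54.5%). The 5' UTR had a median length of 117 nt in transcripts with a start peak (n = 123) and 162 nt in those without (n = 1068), with quartiles of 72.5 and 214.5 nt, and of 76 and 293.25 nt, that overlapped widely.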

How the data were processed

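Human HepG2 libraries (4 m6A-IP, 3 input) were sequenced after fragmentation to about 100 nt, per the labels' protocols. The identity of the aligner and peak caller is not given in the sources used here, nor is the build. Per the file headers, the authors deposited 1 pooled table, in which expression is a quantile, a fraction from 0 to 1, and each peak has a score, position, exon and segment. The deposited score has no stated scale and was used for ranks and medians only.

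Peak entries were split to 1 per line (Python 3.11.15, pandas 2.3.3, SciPy 1.17.1), and TxStart entries were kept. Genes without a start peak were reweighted to quantile bins of 0.1, a step tested on simulated data. Only coding transcripts with a quantile above 0.5 entered that comparison. First bases and motifs came from RefSeq promoters (GRCh38.p14, 250 bases before and 50 from the start), matched by symbol. Where a gene had several listed starts they shared its weight. Transcript sequences came from GENCODE 29, matched by symbol, chromosome, strand, span and peak exons, or by exon alone. For transcripts without any peak, no exon was checked. This looser match enters every GENCODE comparison with transcripts without a start peak. Intervals of medians are binomial order-statistic intervals.

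Named genes are the 10 with the highest-scoring start peak, those with 2 start peaks, the 5 most expressed with and without one, and up to 3 per list by score with the most expressed member lacking one. Sequences follow that rule for up to 12 genes. Members, lists and comparisons were chosen with earlier results of these data known. No test over samples was possible, because no column belongs to a library.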

Additional observations from a re-analysis of the deposited data

How the results depend on the processing

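No paired analysis was possible because no column belongs to a library, and leaving out a replicate gave no value for the same reason. Keeping 1 entry per gene, run for the share, position, score, expression and other peaks, moved none of these 5 summaries. With scores of at least 3, start peaks were 7.68% of peaks rather than 12.5%, 32.1% rather than 37.4% of them lay at 80 to 99 nt, 9.84% rather than 27.5% of coding transcripts above a quantile of 0.9 had one, 71.6% rather than 54.7% stood alone, and complex I had 12.8% rather than 41.0% (5 genes, against 3.33 from the bins). Above a quantile of 0.9, start peaks were 23.1% of peaks. The share of starts with A, 56.9%, was 53.6% above 0.9, 67.8% with an A within 1 base of the start, 35.8% with exact GENCODE matches and 32.9% with matches within 10 nt (an alternative chosen after seeing the data). The difference from genes without a start peak kept its sign in all 7 alternatives, between 8.51 and 18.9 percentage points. RRACH near exactly matched start peaks, 65.0%, was 42.3% within 25 nt and 86.2% within 100 nt, 73.2% with DRACH and 12.2% with GGACU. For the other lists, 19 of 38 alternatives stayed inside the interval and 19 left it. The cause of these movements was not tested, beyond the fewer peaks or genes that each setting holds. Limits: the score has no stated scale, the depth is unknown, starts of the table differ from RefSeq starts, and fragments of about 100 nt blur positions.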

Other observations

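By chromosome, the share of coding transcripts above a quantile of 0.5 with a start peak ran from 7.69% on chromosome 13 (14 of 182) to 18.2% on chromosome X (68 of 373, 14.6 to 22.5%), leaving out chromosome Y, where 0 of 13 had one. Transcripts of the same expression bins gave 13.0% for chromosome X. On chromosome 19, which holds many ZNF genes, the share was 13.4% (113 of 846, 11.2 to 15.8%), against 16.6% from the bins. On chromosome 16 it was 11.1% (67 of 605, 8.82 to 13.8%), against 15.1%. No adjustment was made for the number of chromosomes looked at.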
